A study of Sus scrofa with 4 samples.

Results

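The genes described here are the chemokines, the interleukins with a few of their receptors, the colony-stimulating factor CSF1, and the ligands and receptors of the tumour necrosis factor (TNF) superfamily, in pig kidney. They were chosen by gene symbol, and a symbol was kept when it had 10 or more counts in at least 1 library. CXCL9, CXCL10, CXCL11, TNFRSF12A and IL24 were set apart. This left 54 genes of 97 symbols of these families, among 18168 genes tested. Kidneys came from pigs of 2 genotypes, either after transplantation into non-human primates or untransplanted. In the genotype called CD39/CD46/CD55/TBM in the text, the galactosyltransferase gene was inactivated (GalT-/-) and human CD39, CD46 and CD55 and thrombomodulin (TBM, of a species the labels do not state) were carried as transgenes. In the genotype called CD39/CD55, the same gene was inactivated and human CD39 and CD55 were carried. The 4 groups were the transplanted CD39/CD46/CD55/TBM kidney taken at 6 weeks, the transplanted CD39/CD55 kidney taken at 4 weeks, and, without transplantation, the CD39/CD46/CD55/TBM kidney and the CD39/CD55 kidney, with 1 library each. The GalT-/- change and the human CD39 and CD55 transgenes were thus shared by every library, and an unmodified pig was not analysed here. The stated aim of the series was to choose the genotype that better eases immune rejection. Between the transplanted kidneys the genotype cannot be told apart from the weeks, the recipient or a batch of preparation. The promoters of the transgenes, the age of the pigs and the treatment of the recipients were not given in the sources used here.

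Chemokines are small secreted or membrane-held proteins that draw leukocytes along a gradient through receptors coupled to G proteins. They are classed by the spacing of their first cysteines into CC, CXC and CX3C types. Interleukins and colony-stimulating factors steer the survival, growth and activity of leukocytes, and several of them are made by tubule epithelium and stroma. Many, but not all, act through receptors that signal by JAK kinases and STAT factors. Ligands of the TNF superfamily bind receptors with cysteine-rich repeats, which signal to NF-kappaB or to cell death. In a kidney graft these families shape how recipient leukocytes are drawn in and how the graft responds to them. The roles named in the text are known mainly from human and mouse.

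Total counts per library ran from 10346863 to 14092905. Levels are given as counts or as scaled CPM, which is CPM after TMM scaling of the libraries. The 54 genes together held 1070 and 960 CPM, unscaled, in the transplanted and 884 and 996 in the untransplanted kidneys, each with CD39/CD46/CD55/TBM first. The kidney label was matched by its epithelial markers, of which 21 were measured, although LRP2 of the proximal tubule had 831 and 2622 counts in the transplanted against 20999 and 23515 in the untransplanted kidneys. Their summed level was 4020 and 6980 scaled CPM in the transplanted and 13900 and 14300 in the untransplanted kidneys, in the same order, and 7 of the 21 fell and none rose. Of 17 macrophage and monocyte markers 9 fell and none rose, and their sum was 28.9 and 18.8 scaled CPM in the transplanted and 130 and 122 in the untransplanted kidneys. Of 9 T and NK cell markers none passed the test, with sums of 20.7 and 27.1 in the transplanted and 32.2 and 27.5 scaled CPM in the untransplanted kidneys. CD247 made up most of these sums, with 189 and 311 counts in the transplanted and 331 and 235 in the untransplanted kidneys. No other of the 9 had more than 58 counts in a library. Of 13 endothelial markers TEK fell, of 11 fibroblast and mural markers ACTA2 fell, and neither of 2 measured neutrophil markers passed. The part of these cell types in the differences given here was not tested. Fewer cells of a type and less RNA per cell cannot be told apart in these bulk samples. The counts are assigned to pig genes, and primate cells in the grafts were not assayed separately.

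Over both genotypes, the transplanted kidneys were set against the untransplanted ones, 2 libraries against 2, with edgeR's quasi-likelihood test and Benjamini-Hochberg adjustment over all genes. TNFRSF1B, IL7 and CXCL16 rose, and CCL16 and IL21R fell. The 3 that rose were 5.56% of the 54 genes, against 1.24% of all genes tested, and the 2 that fell were 3.7%, against 2.71% of all genes. The remaining 49 did not pass the test. At an unadjusted p under 0.05, 7 were higher and 5 lower, 13% and 9.26%, against 8.99% and 10.7% of all genes. In 14 genes both transplanted libraries lay above both untransplanted ones, 25.9% of the 54 against 26.3% of all genes, and in 18 they lay below, 33.3% against 25.5%. The median log2 fold change of the 54 genes was -0.04, and that of all genes was 0.03. Members lay on both sides of that median, and 22 of the 54 had a log2 fold change past 1 in size. The minimum of 10 counts was reached in transplanted libraries alone by CCL26, IL11 and IL6, and in untransplanted libraries alone by CCL19, CCL8, IL7R, TNF, TNFSF9 and TNFRSF25. The choice of genes therefore bears on the direction of these 9, and their values are a description.

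**Figure D1:**
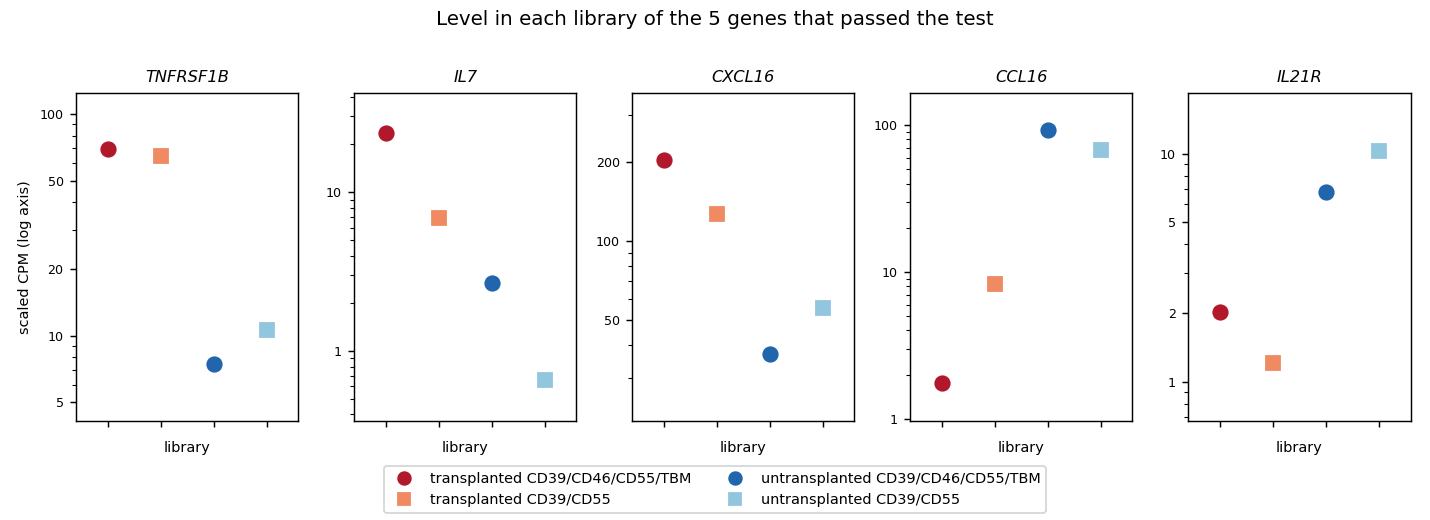
Scaled CPM on log axes (y) in each of the 4 libraries (x, transplanted kidneys on the left of each panel) for the 5 genes that passed the test of transplanted against untransplanted kidney. Each point is 1 library. TNFRSF1B, IL7 and CXCL16 were higher in both transplanted kidneys, at 64.7 scaled CPM or more for TNFRSF1B against 10.6 or less in the untransplanted ones, and CCL16 and IL21R were lower in both.

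Within each genotype 1 library was set against 1, with no replicate check and no test. Calls needed a ratio of scaled counts of at least 2-fold, with an exact 95% counting interval that excluded 1. In CD39/CD46/CD55/TBM 13 of the 54 genes were called higher after transplantation and 11 lower, 24.1% and 20.4%, against 15.9% and 16.3% of all genes. In CD39/CD55 11 were called higher and 10 lower, 20.4% and 18.5%, against 13.2% and 13.7% of all genes. Called higher in both genotypes were CXCL16, IL17D, IL6, IL7 and TNFRSF1B, 9.26% of the 54 against 5.88% of all genes. Called lower in both were CCL16, CCL5, IL21R and IL7R, 7.41% against 7.63% of all genes. IL6 reached the minimum of 10 counts in transplanted libraries alone and IL7R in untransplanted ones alone, so the choice of genes bears on these shares. It also bears on the shares within a single genotype, through CCL8, CCL26, IL11, TNF, TNFSF9 and TNFRSF25. None was called in opposite directions, where the share among all genes was 0.721%. The changes in the 2 genotypes, which share no library, had a Spearman correlation of 0.65 across the 54 genes and of 0.55 across all 18168. The median log2 ratio of the 54 genes was -0.01 in CD39/CD46/CD55/TBM and -0.25 in CD39/CD55, against 0.01 and 0.03 for all genes.

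**Figure D2:**
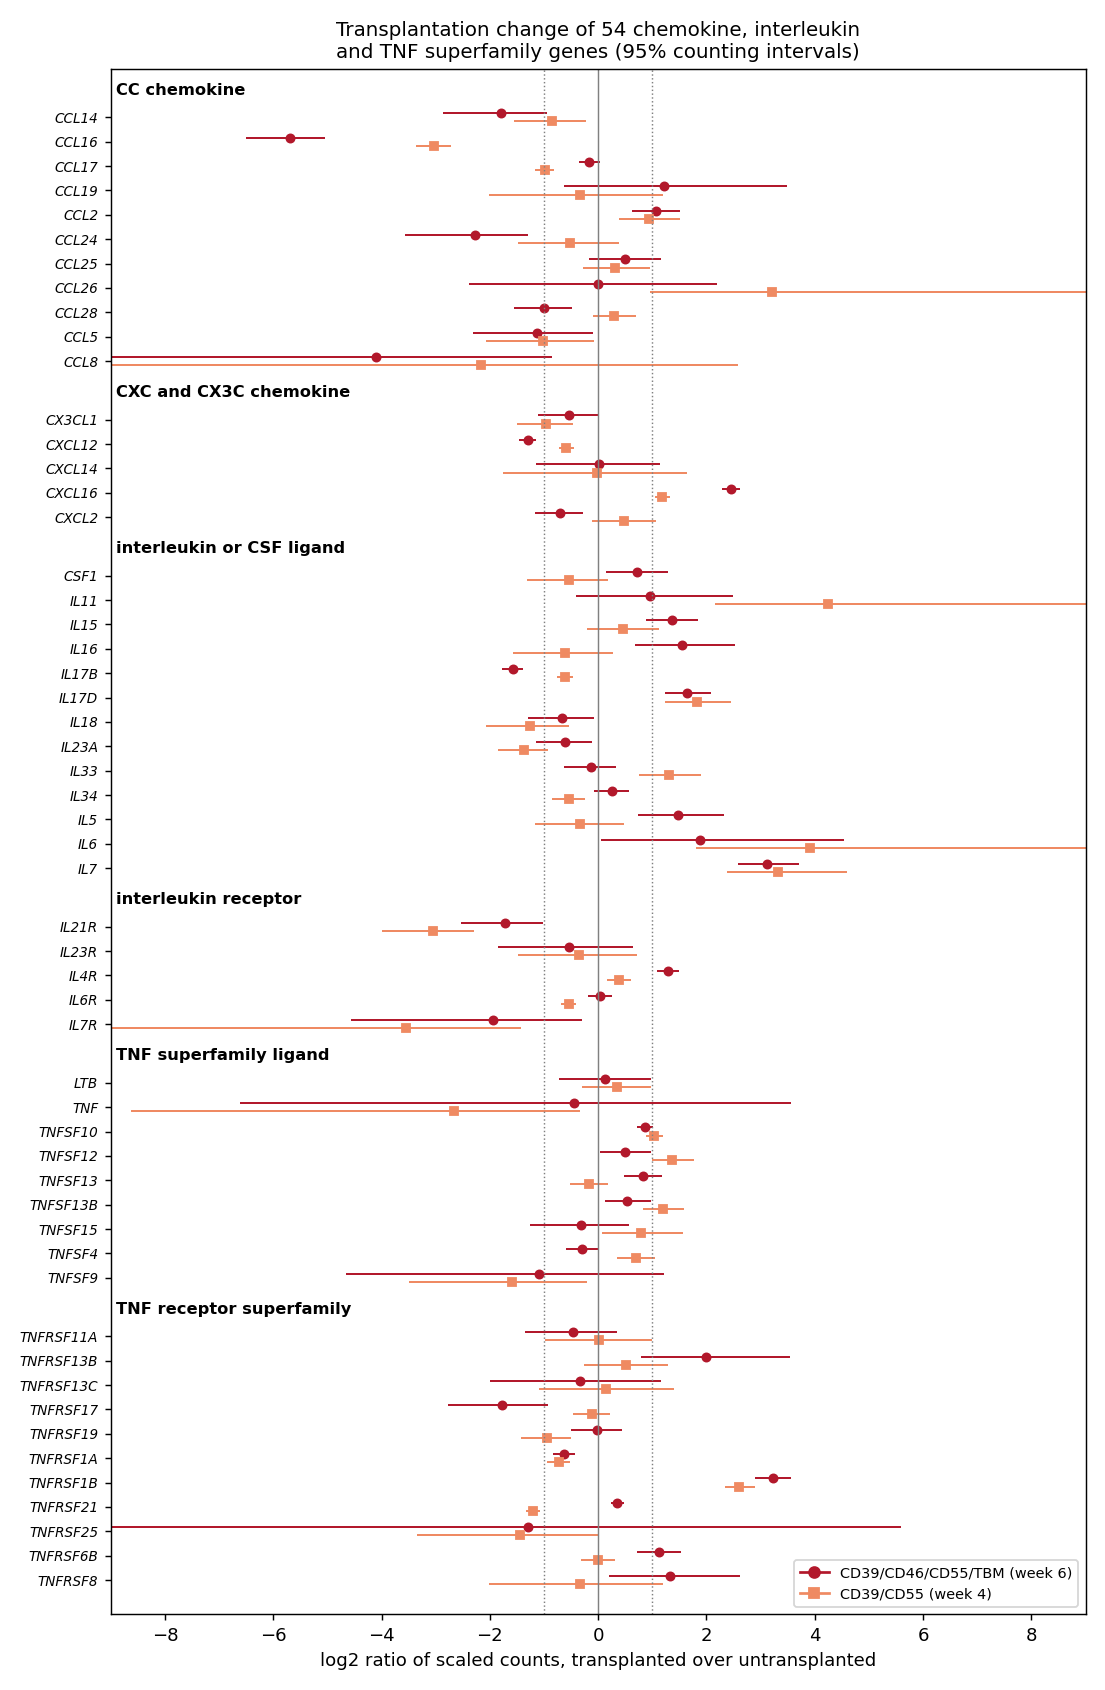
Log2 ratio of scaled counts, transplanted over untransplanted (x), for each of the 54 genes (y, by family), in CD39/CD46/CD55/TBM at 6 weeks (circles) and CD39/CD55 at 4 weeks (squares). Bars are 95% counting intervals of 1 library against 1, and those that reach past the axis end at its edge. Dotted lines mark 2-fold. CCL16 lies at -5.69 and -3.03 and TNFRSF1B at 3.22 and 2.61, and 17 of the 54 genes lie within 2-fold in both genotypes.

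Among the 11 CC chemokines, CCL16 fell, none rose and 10 did not pass. CCL16, which in human is made mainly by liver and attracts monocytes and lymphocytes (chromosome 12, 39618187 to 39621557, Sscrofa11.1), had 18 counts in transplanted and 1170 in untransplanted CD39/CD46/CD55/TBM kidney. In CD39/CD55 it had 103 counts in the transplanted and 938 in the untransplanted kidney. The transplanted kidneys, at 1.74 and 8.32 scaled CPM, stood far below the untransplanted ones, at 92.5 and 68.3, with no overlap. The log2 fold change was -3.98 (SE 0.63, adjusted p = 0.00549), and each of the 9 alternatives kept it past the threshold. It was -3.27 without the transplanted CD39/CD46/CD55/TBM library and -5.52 without the transplanted CD39/CD55 library. The log2 ratio was -5.69 (interval -6.49 to -5.07) in CD39/CD46/CD55/TBM and -3.03 (-3.35 to -2.74) in CD39/CD55, a difference of -2.66 (-3.39 to -1.94).

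CCL14 lies 2.1 kb from CCL16 and CCL5 lies 31.2 kb beyond it on chromosome 12, and both were also low after transplantation without passing the test. CCL14, a chemokine close to CCL16, had 13 counts in transplanted and 57 in untransplanted CD39/CD46/CD55/TBM kidney, with 32 in transplanted and 65 in untransplanted CD39/CD55 kidney (adjusted p = 0.266). CCL5, known as RANTES and made by activated T cells and by stimulated epithelium, had 11 against 30 counts in CD39/CD46/CD55/TBM and 14 against 32 in CD39/CD55, transplanted against untransplanted (adjusted p = 0.401). Its log2 ratios of -1.12 and -1.01 were nearly the same in the 2 genotypes.

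CCL2, which attracts monocytes through CCR2, had the opposite sign, and its receptor gene was hardly counted. CCL2 had 125 counts in transplanted and 73 in untransplanted CD39/CD46/CD55/TBM kidney, with 80 in transplanted and 46 in untransplanted CD39/CD55 kidney. The log2 fold change was 1.02 (SE 0.53) and the adjusted p 0.306. Both transplanted libraries lay above both untransplanted ones, without passing the test. CCR2 had at most 1 count in any library. CCL8, another monocyte attractant, which lies 56.1 kb from CCL2, had no count in either transplanted kidney. Without transplantation it had 10 counts in CD39/CD46/CD55/TBM and 2 in CD39/CD55. Against a floor of 3 counts per library it was at least 2.73-fold lower after transplantation in CD39/CD46/CD55/TBM, and no fold is given for CD39/CD55. It is in the set through the 10 counts of that untransplanted library alone, which fixes this direction.

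The eotaxin genes CCL24 and CCL26, which act on eosinophils through CCR3, differed between the genotypes in their ratios. CCL24 had 9 counts in transplanted and 56 in untransplanted CD39/CD46/CD55/TBM kidney, with 18 in transplanted and 29 in untransplanted CD39/CD55 kidney. CCL26 had 4 and 5 counts in transplanted and untransplanted CD39/CD46/CD55/TBM kidneys, and 12 and 1 in the transplanted and untransplanted CD39/CD55 kidneys. The difference between the genotypes in the log2 change was -1.76 for CCL24 (interval -3.06 to -0.46) and -3.21 for CCL26 (-6.24 to -0.17). CCL26 is in the set through the transplanted CD39/CD55 library alone, which also makes its difference. CCL28, a chemokine of mucosal epithelium, had 47 counts in transplanted and 116 in untransplanted CD39/CD46/CD55/TBM kidney, with 123 and 111 in the transplanted and untransplanted CD39/CD55 kidneys. It was therefore lower in transplanted CD39/CD46/CD55/TBM kidney alone of the 4 libraries, and its difference between the genotypes was -1.30 (-1.91 to -0.69). CCL25, a ligand of CCR9 made by thymus and gut, had 39 to 52 counts in every library, and CCL19, a ligand of CCR7, had 4 to 10.

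Of the 5 CXC and CX3C chemokines, CXCL16 rose, none fell and 4 did not pass. CXCL16 (chromosome 12, 52145100 to 52150267) encodes a membrane-bound chemokine that is shed to attract cells bearing CXCR6 and also acts as a scavenger receptor. It had 2104 counts in transplanted and 470 in untransplanted CD39/CD46/CD55/TBM kidney, with 1563 in transplanted and 763 in untransplanted CD39/CD55 kidney. Both transplanted kidneys, at 203 and 126 scaled CPM, lay above both untransplanted ones, at 37.1 and 55.6. The log2 fold change was 1.83 (SE 0.46, adjusted p = 0.043), close to the threshold. It passed in 6 of 9 alternatives, with adjusted p from 0.000954 to 0.206, and did not pass without the transplanted CD39/CD46/CD55/TBM library (0.0824), the untransplanted CD39/CD46/CD55/TBM library (0.206) or the untransplanted CD39/CD55 library (0.0791). The ratio was 5.47-fold in CD39/CD46/CD55/TBM and 2.27-fold in CD39/CD55, a log2 difference of 1.27 (interval 1.08 to 1.46). CXCR6, its receptor, had 4 and 0 counts in the transplanted and 5 and 14 in the untransplanted kidneys, each with CD39/CD46/CD55/TBM first.

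CXCL12, which holds and guides leukocytes and progenitors through CXCR4, had 528 counts in transplanted and 1592 in untransplanted CD39/CD46/CD55/TBM kidney, with 1010 in transplanted and 1683 in untransplanted CD39/CD55 kidney. It was lower in both transplanted kidneys, with log2 ratios of -1.30 and -0.59, and did not pass the test (adjusted p = 0.262). CXCR4 had at most 1 count in any library, and ACKR3, which scavenges CXCL12, had 766 and 1294 counts in the transplanted and 1497 and 1076 in the untransplanted kidneys, in the same order. CX3CL1, the fractalkine gene of endothelium and epithelium, had 46 and 51 counts in the transplanted and 82 and 111 in the untransplanted kidneys, again with CD39/CD46/CD55/TBM first (adjusted p = 0.413). CXCL2, which attracts neutrophils, had 73 counts in transplanted and 146 in untransplanted CD39/CD46/CD55/TBM kidney, with 60 in transplanted and 48 in untransplanted CD39/CD55 kidney. The untransplanted CD39/CD46/CD55/TBM library was the high one. CXCL14 had 7 to 17 counts in each library.

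Of the 13 interleukin and CSF ligands, IL7 rose, none fell and 12 did not pass. The median log2 ratio was 0.96 in CD39/CD46/CD55/TBM, with 6 called higher and 1 lower (46.2% and 7.69%, against 15.9% and 16.3% of all genes). It was -0.33 in CD39/CD55, with 5 called higher and 2 lower (38.5% and 15.4%, against 13.2% and 13.7% of all genes). Among the genes called, IL6 and IL11 reached the minimum of 10 counts in transplanted libraries alone. IL17D, IL5, IL33, IL17B and IL23A overlap another gene. The shares are therefore a description of these symbols. IL7, IL6 and IL17D were the 3 called higher in both genotypes, IL6 with the limit given for its selection. IL7 (chromosome 4, 57677895 to 57744713) encodes the survival factor of lymphocytes that stroma and epithelium secrete. It had 243 counts in transplanted and 34 in untransplanted CD39/CD46/CD55/TBM kidney, with 85 in transplanted and 9 in untransplanted CD39/CD55 kidney. The 4 libraries stood in the order transplanted CD39/CD46/CD55/TBM, transplanted CD39/CD55, untransplanted CD39/CD46/CD55/TBM and untransplanted CD39/CD55, at 23.5, 6.87, 2.69 and 0.656 scaled CPM. The log2 fold change was 3.18 (SE 0.73, adjusted p = 0.0303). It passed in 8 of 9 alternatives (1.6e-06 to 0.0683) and did not without the transplanted CD39/CD46/CD55/TBM library, where the log2 fold change was 2.04 (0.0683). It was 3.81 without transplanted CD39/CD55, 4.51 with untransplanted CD39/CD46/CD55/TBM left out and 2.49 with untransplanted CD39/CD55 left out. The ratio was close in the 2 genotypes, 8.63-fold in CD39/CD46/CD55/TBM and 9.98-fold in CD39/CD55.

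IL17D, a member of the IL17 family made largely outside the immune system, had 191 counts in transplanted and 74 in untransplanted CD39/CD46/CD55/TBM kidney, with 109 in transplanted and 34 in untransplanted CD39/CD55 kidney. The ratios were again close, 3.14-fold and 3.52-fold, but the adjusted p was 0.115 for a log2 fold change of 1.71 (SE 0.56). It passed in 4 of 9 alternatives, with adjusted p from 0.00544 to 0.52, the lowest being that with genotype as a block. The gp130 cytokines IL6 and IL11, which drive STAT3 and the acute phase, had few counts, and reached the minimum of 10 in transplanted libraries alone, which bears on their direction. Neither passed the test. IL6 had 10 and 3 counts in transplanted and untransplanted CD39/CD46/CD55/TBM kidneys, and 20 and 1 in the transplanted and untransplanted CD39/CD55 kidneys (log2 fold change 3, SE 1.08, adjusted p = 0.146). IL11 had 13 and 8 counts in CD39/CD46/CD55/TBM and 25 and 1 in CD39/CD55, transplanted before untransplanted (log2 fold change 2.21, SE 0.99, adjusted p = 0.24). Their intervals in CD39/CD55 reached from 1.83 to 9.84 for IL6 and from 2.18 to 10.15 for IL11 on the log2 scale, so the size of these ratios is poorly fixed at this depth.

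IL15, which sustains NK and memory CD8 T cells, had 124 counts in transplanted and 59 in untransplanted CD39/CD46/CD55/TBM kidney, with 47 in transplanted and 38 in untransplanted CD39/CD55 kidney (adjusted p = 0.344). The transplanted CD39/CD46/CD55/TBM library stood apart at 12 scaled CPM, and the other 3 lay between 2.77 and 4.66. IL16, which binds CD4, and IL5, a growth factor of eosinophils, had the same form. IL16 had 39 and 16 counts in transplanted and untransplanted CD39/CD46/CD55/TBM kidneys, and 18 and 31 in the transplanted and untransplanted CD39/CD55 kidneys. IL5 had 51 and 22 counts in CD39/CD46/CD55/TBM and 25 and 35 in CD39/CD55, transplanted before untransplanted. Their differences between the genotypes were 2.17 (interval 1 to 3.34) and 1.81 (0.79 to 2.84) on the log2 scale.

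CSF1 and IL34 are the ligands of CSF1R, the receptor that keeps macrophages alive, and tubule epithelium makes both. CSF1 had 67 counts in transplanted and 50 in untransplanted CD39/CD46/CD55/TBM kidney, with 27 in transplanted and 44 in untransplanted CD39/CD55 kidney (adjusted p = 0.841). IL34 had 174 and 160 counts in the transplanted and 179 and 259 in the untransplanted kidneys, with CD39/CD46/CD55/TBM first in each pair (adjusted p = 0.872). Neither ligand separated transplanted from untransplanted kidneys. CSF1R fell beside them, with 2 and 2 counts in the transplanted and 41 and 62 in the untransplanted kidneys, in the same order (log2 fold change -4.38, SE 0.82, adjusted p = 0.0126), as did 8 further macrophage and monocyte markers.

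IL33, an alarmin released by damaged cells, had 69 and 93 counts in CD39/CD46/CD55/TBM and 92 and 41 in CD39/CD55, transplanted before untransplanted, so that 1 library was the low one. In CD39/CD55 it was called higher after transplantation, at 2.47-fold, and in CD39/CD46/CD55/TBM the ratio was 0.909-fold, a log2 difference between the genotypes of -1.44 (interval -2.14 to -0.75). IL18, a cytokine of the inflammasome that tubule epithelium stores, had 38 and 22 counts in the transplanted and 74 and 59 in the untransplanted kidneys, with CD39/CD46/CD55/TBM first. Both transplanted libraries lay below both untransplanted ones (log2 fold change -0.90, SE 0.57, adjusted p = 0.413). IL23A, the p19 subunit of IL23, did the same, with 54 and 60 counts in the transplanted against 102 and 173 in the untransplanted kidneys (adjusted p = 0.255). IL17B had 361 counts in transplanted and 1316 in untransplanted CD39/CD46/CD55/TBM kidney, with 730 in transplanted and 1244 in untransplanted CD39/CD55 kidney. Its log2 fold change of -1.05 (SE 0.43) had an adjusted p of 0.196, with 0.0286 to 0.632 over the alternatives. With genotype as a block it passed (0.0286).

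**Figure D3:**
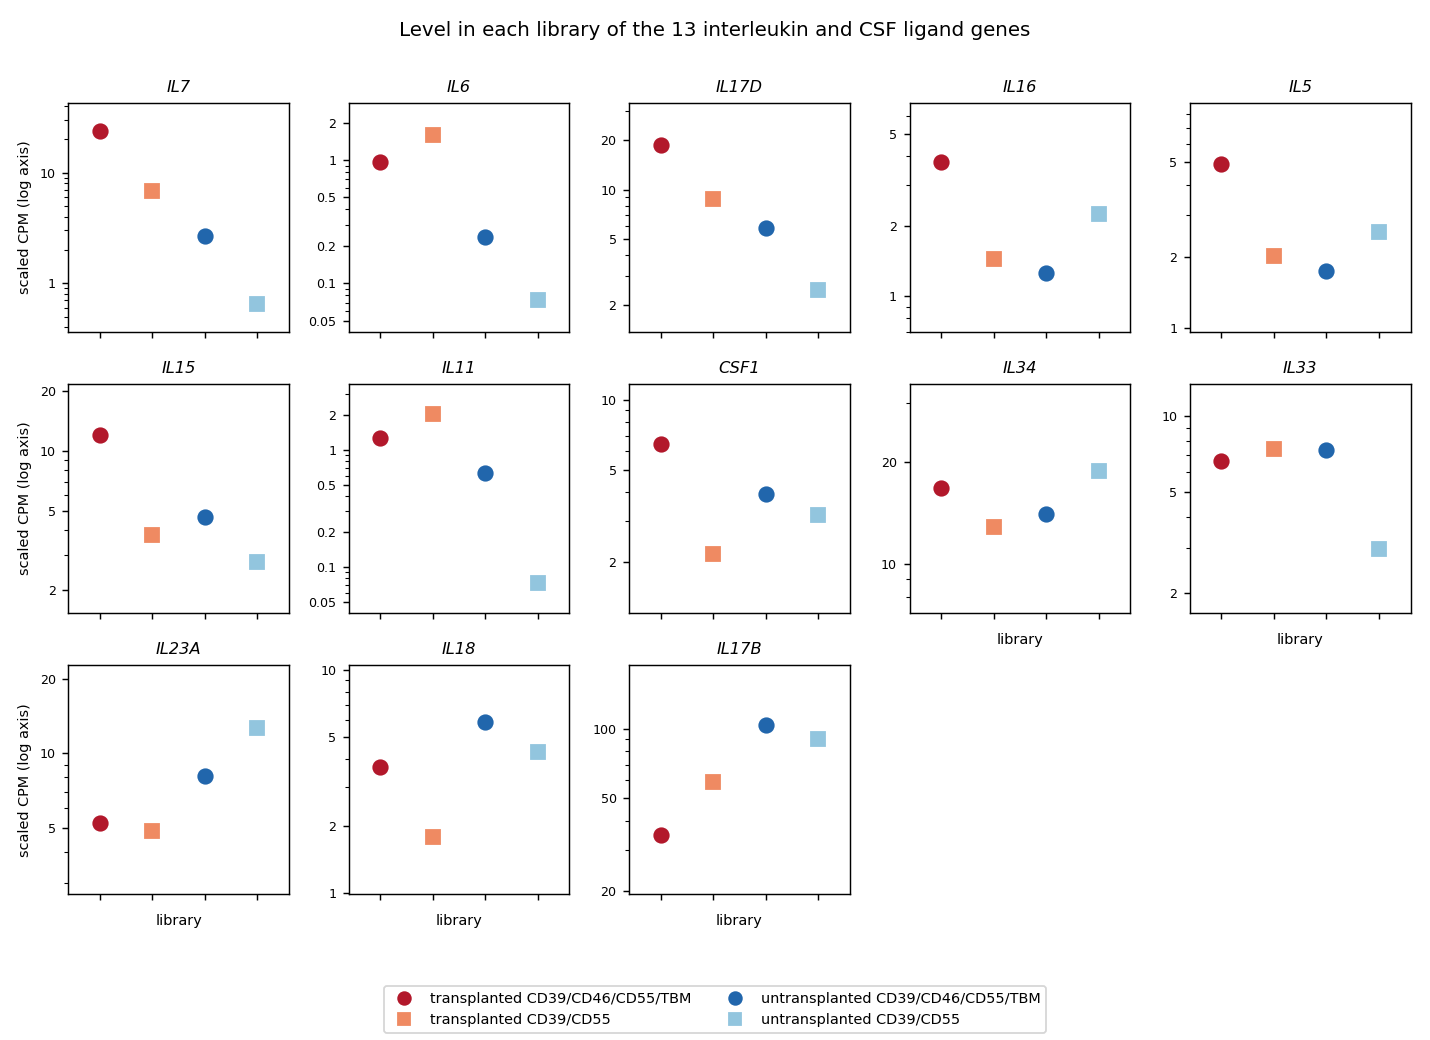
Scaled CPM on log axes (y) in each of the 4 libraries (x, transplanted kidneys on the left of each panel) for the 13 interleukin and CSF ligand genes, ordered by the ratio in CD39/CD46/CD55/TBM. Each point is 1 library. IL7, IL6, IL17D and IL11 are higher in both transplanted kidneys than in both untransplanted ones, IL16, IL5, IL15 and CSF1 are highest in transplanted CD39/CD46/CD55/TBM kidney, and IL23A, IL18 and IL17B are lower in both transplanted kidneys.

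Of the 5 interleukin receptors chosen by symbol, IL21R fell, none rose and 4 did not pass. IL21R (chromosome 3, 19447488 to 19489201) encodes the receptor chain for IL21 on lymphocytes. It had 21 counts in transplanted and 86 in untransplanted CD39/CD46/CD55/TBM kidney, with 15 in transplanted and 142 in untransplanted CD39/CD55 kidney. Both transplanted libraries lay below both untransplanted ones, at 2.03 and 1.21 against 6.80 and 10.3 scaled CPM. The log2 fold change was -2.40 (SE 0.56, adjusted p = 0.0323). It passed in 7 of 9 alternatives (0.00184 to 0.164), and did not pass without the untransplanted CD39/CD55 library (0.164) or under limma voom (0.0501). The T and NK cell markers beside it summed to 20.7 and 27.1 scaled CPM in the transplanted and 32.2 and 27.5 in the untransplanted kidneys. Most of that sum was CD247, with log2 ratios of -0.52 in CD39/CD46/CD55/TBM and 0.55 in CD39/CD55. The medians over the list were -1.09 and -1.69 in the same order, so the sum follows CD247 more than the rest of the list. The part of these cells in IL21R was not tested.

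IL7R, the receptor chain for IL7 on T cells, had 3 and 1 counts in the transplanted and 16 and 19 in the untransplanted kidneys, with CD39/CD46/CD55/TBM first (log2 fold change -2.82, SE 1.05, adjusted p = 0.16). Its sign was opposite to that of its ligand. IL7R reached the minimum of 10 counts in untransplanted libraries alone, which bears on this direction and on the contrast with IL7. The overlapping LOC106508147 had 0.62 to 1 times its counts. IL4R lies 37.1 kb from IL21R and encodes the shared receptor chain for IL4 and IL13. It had 722 counts in transplanted and 360 in untransplanted CD39/CD46/CD55/TBM kidney, with 461 in transplanted and 391 in untransplanted CD39/CD55 kidney (log2 fold change 0.91, SE 0.43, adjusted p = 0.264). IL13RA1, the chain that pairs with IL4R, rose, with 241 and 91 counts in the transplanted and 27 and 27 in the untransplanted kidneys, in the same order (log2 fold change 2.89, SE 0.60, adjusted p = 0.0205). It did not pass without the transplanted CD39/CD46/CD55/TBM library (0.0984, with 4.03e-06 to 0.0984 over 9 alternatives). IL6R had 406 and 485 counts in transplanted and untransplanted CD39/CD46/CD55/TBM kidneys, and 857 and 1385 in the transplanted and untransplanted CD39/CD55 kidneys, so CD39/CD55 was the higher genotype in both states. IL6ST, the gp130 chain shared by IL6 and IL11, had 2151 and 2125 counts in the transplanted and 1316 and 1146 in the untransplanted kidneys, with CD39/CD46/CD55/TBM first (log2 fold change 1.02, adjusted p = 0.208). IL23R, a receptor chain for IL23, had 10 to 20 counts in each library.

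None of the 9 TNF superfamily ligands passed the test. TNFSF10, which encodes the death ligand TRAIL, had 1250 counts in transplanted and 842 in untransplanted CD39/CD46/CD55/TBM kidney, with 1289 in transplanted and 693 in untransplanted CD39/CD55 kidney. The levels were 121 and 104 scaled CPM in the transplanted and 66.6 and 50.5 in the untransplanted kidneys, with no overlap (log2 fold change 0.94, SE 0.41, adjusted p = 0.227). TNFSF13B, the B cell survival factor BAFF, had 117 and 205 counts in the transplanted and 98 and 99 in the untransplanted kidneys, with CD39/CD46/CD55/TBM first (adjusted p = 0.291). TNFSF12, which encodes TWEAK, had 94 and 204 counts in the transplanted and 81 and 87 in the untransplanted kidneys, in the same order (adjusted p = 0.266). For both, the transplanted CD39/CD55 library was the highest of the 4, and they were called higher in that genotype. TNFSF13, which encodes APRIL and starts 0.3 kb from the end of TNFSF12, had 181 and 139 counts in the transplanted and 125 and 174 in the untransplanted kidneys.

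TNF itself had 1 count in each transplanted kidney and 2 in untransplanted CD39/CD46/CD55/TBM kidney, with 10 in untransplanted CD39/CD55 kidney. It is in the set through that 1 library, and a difference was not detectable at this depth in CD39/CD46/CD55/TBM, where the interval of the log2 ratio ran from -6.59 to 3.55. LTB, a lymphotoxin chain that lies 2.4 kb from TNF, had 25 to 49 counts in the libraries, with an adjusted p of 0.843. TNFSF4, the co-stimulator OX40L, had 193 and 184 counts in the transplanted and 291 and 126 in the untransplanted kidneys, with CD39/CD46/CD55/TBM first. Its log2 ratio was -0.30 (interval -0.57 to -0.03) in CD39/CD46/CD55/TBM and 0.69 (0.36 to 1.03) in CD39/CD55. TNFSF15, a ligand of the death receptor TNFRSF25, had 44 counts in transplanted CD39/CD55 kidney and 19 to 29 in the others. TNFSF9, the co-stimulator 4-1BBL, had 2 and 5 counts in the transplanted and 6 and 18 in the untransplanted kidneys, with CD39/CD46/CD55/TBM first.

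Among the 11 members of the TNF receptor superfamily, TNFRSF1B rose, none fell and 10 did not pass. TNFRSF1B (chromosome 6, 72195420 to 72231146) encodes TNFR2, the TNF receptor without a death domain. It had 718 counts in transplanted and 94 in untransplanted CD39/CD46/CD55/TBM kidney, with 800 in transplanted and 145 in untransplanted CD39/CD55 kidney. The transplanted kidneys stood close together at 69.4 and 64.7 scaled CPM, far above 7.43 and 10.6 in the untransplanted ones. The log2 fold change was 2.90 (SE 0.43, adjusted p = 0.00438), a 7.44-fold difference, and each of the 9 alternatives kept it past the threshold. The ratio was 9.30-fold in CD39/CD46/CD55/TBM and 6.10-fold in CD39/CD55. Leukocytes also express this receptor, and the summed macrophage and monocyte markers were lower in both transplanted kidneys, at 28.9 and 18.8 against 130 and 122 scaled CPM. CD14 of the same list lay the other way, with 41 and 48 counts in the transplanted and 12 and 21 in the untransplanted kidneys (adjusted p = 0.165). The part of leukocytes in TNFRSF1B was not tested.

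The counts of TNFRSF1A, which encodes TNFR1, the TNF receptor with a death domain, did not follow those of TNFRSF1B. TNFRSF1A had 358 and 334 counts in the transplanted and 678 and 613 in the untransplanted kidneys, with CD39/CD46/CD55/TBM first. Both transplanted libraries lay below both untransplanted ones (log2 fold change -0.67, SE 0.40, adjusted p = 0.377). PLEKHG6, which shares 410 bases of its span, had 1.21 to 1.45 times its counts. The log2 ratios of PLEKHG6 were -0.52 and -0.73, beside -0.63 and -0.73 for TNFRSF1A, with CD39/CD46/CD55/TBM first. Only reads within those 410 bases, of the 12528 that TNFRSF1A spans, cannot be told apart by gene. The part of PLEKHG6 in the counts of TNFRSF1A was not tested. TNFRSF8, the gene of CD30 that lies 20.5 kb from TNFRSF1B, had 21 counts in transplanted CD39/CD46/CD55/TBM kidney and 7 to 10 in the other 3.

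TNFRSF21, which encodes the death receptor DR6, had 1673 counts in transplanted and 1604 in untransplanted CD39/CD46/CD55/TBM kidney, with 950 in transplanted and 2434 in untransplanted CD39/CD55 kidney. The log2 ratio was 0.35 (interval 0.25 to 0.45) in CD39/CD46/CD55/TBM and -1.21 (-1.32 to -1.10) in CD39/CD55, with an adjusted p of 0.721 over both. TNFRSF17 and TNFRSF13B encode BCMA and TACI, the receptors of APRIL and BAFF on B and plasma cells. TNFRSF17 had 14 counts in transplanted and 60 in untransplanted CD39/CD46/CD55/TBM kidney, with 152 in transplanted and 183 in untransplanted CD39/CD55 kidney, so the transplanted CD39/CD46/CD55/TBM library was the low one. TNFRSF13B had 24 and 36 counts in the transplanted and 7 and 28 in the untransplanted kidneys, with CD39/CD46/CD55/TBM first. Of the B and plasma cell markers, 3 were measured, and their sum was 2.03 and 4.2 scaled CPM in the transplanted and 5.3 and 5.17 in the untransplanted kidneys. TNFRSF13C, the BAFF receptor, had 7 to 13 counts in each library. TNFRSF11A, which encodes RANK, had 19 to 36, TNFRSF19, which encodes TROY, had 65 to 140, and TNFRSF25, which encodes DR3, had 0 to 16.

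The genotypes were compared next. Over both states none of the 54 genes passed edgeR's test of CD39/CD46/CD55/TBM against CD39/CD55 and none of all 18168 did (0% called). At an unadjusted p under 0.05 there were 0 higher and 3 lower among the 54, namely IL6R, TNFRSF17 and TNFRSF25, and 190 and 259 among all genes (1.05% and 1.43%). DESeq2's Wald test called 12 higher and 5 lower among all genes, and limma voom called 0 and 0, with 0 of the 54 in either. With state as a block, edgeR called 133 higher and 171 lower among all genes, and among the 54 IL7 was higher and TNFRSF17 lower in CD39/CD46/CD55/TBM. In the transplanted kidneys 9 of the 54 were called higher in CD39/CD46/CD55/TBM and 4 lower, 16.7% and 7.41%, against 11% and 11% of all genes. The 9 were CSF1, IL15, IL16, IL17D, IL18, IL5, IL7, TNFRSF21 and TNFRSF8. Of the 13 interleukin and CSF ligands 7 were among them (53.8%, against 11% of all genes), and IL5 and IL17D of these overlap another gene. The 4 were CCL14, CCL16, CCL28 and TNFRSF17. In the untransplanted kidneys 8 were called higher in CD39/CD46/CD55/TBM and 6 lower, against 8.17% and 7.88% of all genes. IL7, IL17D and TNFRSF17 were called the same way in both states, IL7 and IL17D higher and TNFRSF17 lower in CD39/CD46/CD55/TBM. IL7 was 3.41-fold higher in CD39/CD46/CD55/TBM in the transplanted and 3.94-fold in the untransplanted kidneys, and IL17D 2.09-fold and 2.34-fold. The transplantation change itself was called different between the genotypes for 17 genes, 8 higher in CD39/CD46/CD55/TBM (14.8%, against 10.4% of all genes) and 9 lower (16.7%, against 11.5%). These calls cover counting error of 1 library per group and do not separate genotype from the animal, the week or the recipient.

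**Figure D4:**
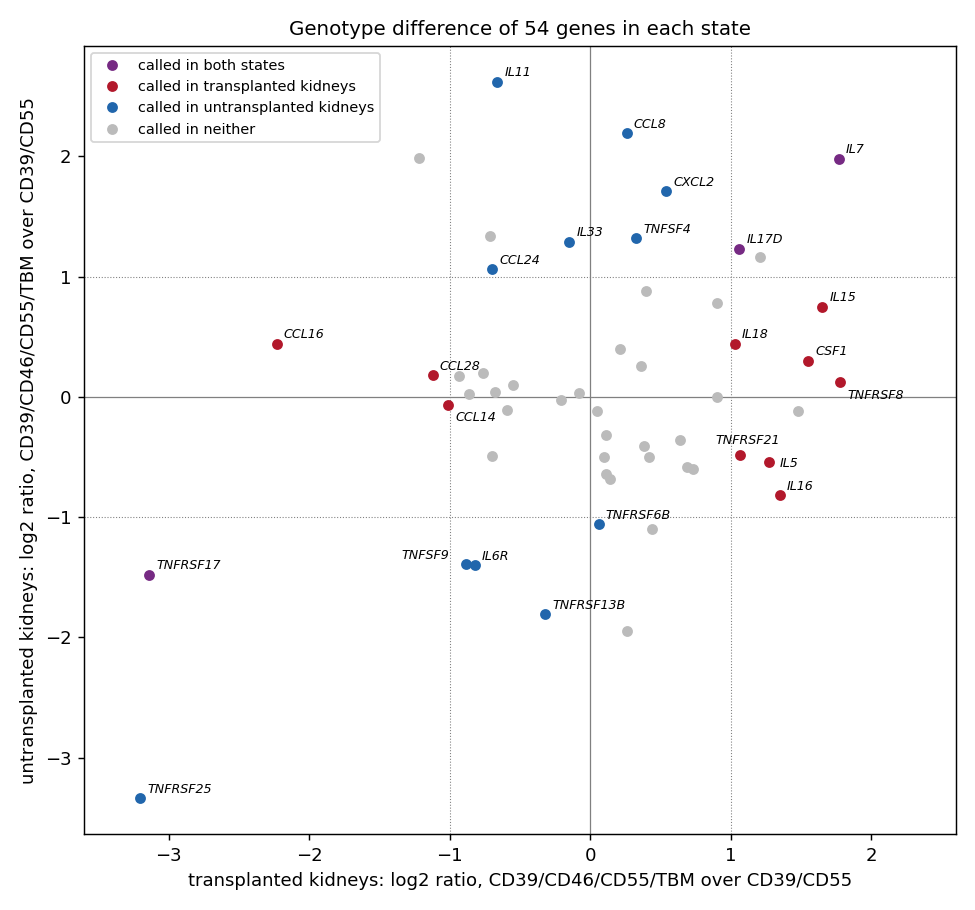
Log2 ratio of CD39/CD46/CD55/TBM over CD39/CD55 in the transplanted kidneys (x) and in the untransplanted kidneys (y) for the 54 genes, 1 library against 1 on each axis. Colours show in which state a gene was at least 2-fold different with a counting interval that excluded 1, and dotted lines mark 2-fold. IL7 (1.77 and 1.98) and IL17D (1.06 and 1.23) were higher and TNFRSF17 (-3.14 and -1.48) lower in CD39/CD46/CD55/TBM in both states, while IL15, CSF1 and TNFRSF8 differed in the transplanted kidneys.

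Of the 54 genes 17 overlap another gene in the RefSeq annotation, and counting by strand is not stated. Reads within the shared bases of such a pair cannot be told apart by gene. The shared stretch ran from 73 bases, for IL33 with a tRNA gene, to 64145, for IL23R with C6H1orf141. LOC110259895, which overlaps CCL24, had no count in any library. CCL17, a chemokine that acts through CCR4, had 478 and 519 counts in the transplanted and 654 and 1138 in the untransplanted kidneys, with CD39/CD46/CD55/TBM first. CIAPIN1, which shares 16908 bases of its span and takes part in iron-sulphur cluster assembly, had 475 and 514 counts in the transplanted and 653 and 1135 in the untransplanted kidneys. The counts of CIAPIN1 were 0.99 to 1 times those of CCL17 in every library, so the values of CCL17 cannot be read as that gene's own. TNFRSF6B, which in human encodes a decoy receptor for FAS ligand, had 155 and 178 counts in the transplanted and 87 and 197 in the untransplanted kidneys. The overlapping genes ARFRP1 and RTEL1 had 0.99 to 1.08 and 0.92 to 0.98 times its counts. For TNFRSF17 the overlapping LOC100739121 had 0.83 to 2.14 times its counts, and for IL7R the overlapping LOC106508147 had 0.62 to 1 times. IL17B spans several genes, of which GRPEL2 had 0.41 to 0.61 times its counts, and IL5 lies within SLC22A5, which shares 13999 bases with it and had 16.02 to 41.95 times its counts. RAD50 shares 1682 bases with IL5 and had 19.76 to 88.86 times its counts. IL17D overlaps EEF1AKMT1, whose counts were 2.3 to 15.24 times its own and lay between 439 and 518 in the 4 libraries. The others with such an overlap were CCL24, CCL28, IL23A, IL33, IL34, IL23R, LTB, TNFSF4, TNFRSF1A and TNFRSF25. None of the 5 genes that passed the test overlaps another gene.

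**Figure D5:**
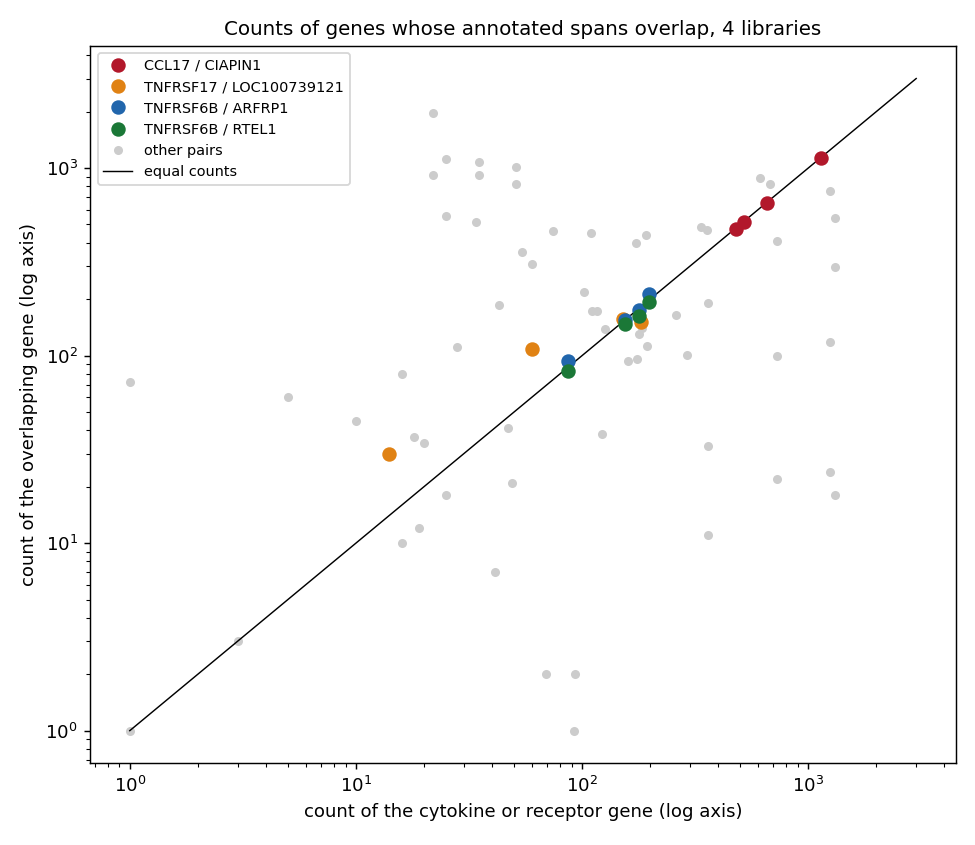
Counts of each of the overlapping genes (y) against the counts of the cytokine or receptor gene it overlaps (x), both on log axes, with 1 point per library where both were above 0. The line marks equal counts. The CCL17 and CIAPIN1 points lie on it and those of TNFRSF6B with ARFRP1 and RTEL1 lie close to it. The other pairs lie at varied distances from it. Among the nearer ones were TNFRSF1A with PLEKHG6, at 1.21 to 1.45 times, and IL34 with MTSS1L, at 0.55 to 0.73 times.

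Genes of the same pathways that the symbols do not cover were taken from 4 lists. Of 13 measured chemokine receptors none passed the test, with median log2 ratios of 0.00 in CD39/CD46/CD55/TBM, with 1 called higher and 5 lower, and -0.18 in CD39/CD55, with 2 called higher and 6 lower. These are 7.69% and 38.5% in CD39/CD46/CD55/TBM, against 15.9% and 16.3% of all genes, and 15.4% and 46.2% in CD39/CD55, against 13.2% and 13.7%. XCR1, found on cross-presenting dendritic cells, had 5 and 1 counts in the transplanted and 29 and 45 in the untransplanted kidneys, with CD39/CD46/CD55/TBM first (adjusted p = 0.0604). CX3CR1, the receptor of CX3CL1, had 2 and 3 against 30 and 20. ACKR2 of the same list lay the other way, with 46 and 62 against 27 and 14 (adjusted p = 0.173). It was called higher in both genotypes. A further list of 35 genes held receptor subunits and antagonists of interleukins and colony-stimulating factors, and also the cytokine genes LIF and EBI3. Of these, IL1RAP and IL13RA1 rose and IL10RA and CSF1R fell. In CD39/CD46/CD55/TBM 11 were called higher and 5 lower (31.4% and 14.3%, against 15.9% and 16.3% of all genes). In CD39/CD55 6 were called higher and 10 lower (17.1% and 28.6%, against 13.2% and 13.7%). IL1RAP, the accessory chain of the IL1 and IL33 receptors, had 540 and 323 counts in the transplanted and 95 and 135 in the untransplanted kidneys, in the same order (log2 fold change 2.17, SE 0.47, adjusted p = 0.0238). It did not pass without the transplanted (0.0683) or the untransplanted (0.0567) CD39/CD46/CD55/TBM library (6.85e-05 to 0.0683 over 9 alternatives). IL10RA, the leukocyte chain of the IL10 receptor, had 2 and 0 against 41 and 50 (adjusted p = 0.0171, and 0.000164 to 0.0522 over 9 alternatives, of which limma voom did not pass).

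Of 40 genes of NF-kappaB and TNF receptor signalling, NFKBIZ rose and none fell. NFKBIZ, an atypical inhibitor of NF-kappaB that also induces a subset of its targets, had 656 and 262 counts in the transplanted and 153 and 69 in the untransplanted kidneys, with CD39/CD46/CD55/TBM first (log2 fold change 2.30, SE 0.58, adjusted p = 0.0466). It passed in 6 of 9 alternatives (1.09e-05 to 0.208), and not under limma voom (0.0641), without the transplanted CD39/CD46/CD55/TBM library (0.208) or without the untransplanted CD39/CD55 library (0.134). The list had medians of 0.36 in CD39/CD46/CD55/TBM, with 14 called higher and 2 lower (35% and 5%, against 15.9% and 16.3% of all genes). In CD39/CD55 the median was 0.09, with 9 called higher and 2 lower (22.5% and 5%, against 13.2% and 13.7%). Of 22 genes of JAK-STAT signalling none passed the test, and the medians were 0.38 in CD39/CD46/CD55/TBM and 0.24 in CD39/CD55. In CD39/CD46/CD55/TBM 4 were called higher and 2 lower (18.2% and 9.09%, against 15.9% and 16.3% of all genes). In CD39/CD55 2 were called higher and 2 lower (9.09% each, against 13.2% and 13.7%). SOCS3, the feedback inhibitor of gp130 signalling, had 302 and 127 counts in the transplanted and 73 and 62 in the untransplanted kidneys (adjusted p = 0.0662), and STAT3 had 1459 and 340 against 296 and 180 (adjusted p = 0.0766), in the same order. SOCS2 lay the other way, with 17 and 34 against 63 and 93 (adjusted p = 0.185).

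Of the 97 symbols 43 stayed below 10 counts in every library, and 9 of them had no count at all. Best known among them were CXCL8, the chief chemokine of neutrophils, with 0 and 2 counts in the transplanted and 3 and 7 in the untransplanted kidneys, and IL1B, the main inflammasome cytokine, with 0 and 0 against 5 and 4, each with CD39/CD46/CD55/TBM first. IL10 had 2 to 4 counts and IL1A 1 to 4. Just inside the minimum were CCL19, CCL8 and TNF with a highest count of 10, and just outside was IL9R with 8. The floor used for a gene without counts was 3 counts per library, which is 0.29 and 0.242 scaled CPM in the transplanted and 0.237 and 0.219 in the untransplanted kidneys.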

How the data were processed

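RNA of pig kidney was measured in 4 libraries, made from total RNA with a Lexogen QuantSeq kit, per the labels' protocols, which do not settle whether counts come from the 3' end or the whole transcript. The deposited files hold raw counts per gene symbol, without normalization by the authors. Per the submitters' processing notes, the tools were Bowtie2 and bedtools and the build was Sscrofa11.1. Versions, counting options, use of strand and the treatment of primate reads were not given in the sources used here. Counts of near-identical or overlapping genes may hold reads that were split or counted more than once.

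Each file had 26965 lines and 26466 symbols, and lines of the 81 repeated symbols were summed. Genes with 10 or more counts in at least 1 library were kept. Counts were scaled with TMM (edgeR 4.0.16, R 4.3.3). Transplanted and untransplanted kidneys, and the genotypes, were compared 2 libraries against 2 with edgeR's quasi-likelihood test, Benjamini-Hochberg adjusted over all genes with a threshold of 0.05. Each side mixes genotypes or states, and that difference enters the spread, and p-values cover only the spread between these libraries. The SE is the absolute log2 fold change divided by the square root of the F statistic. Pairs of libraries were compared by log2 ratio with a prior count of 0.5 and an exact (Clopper-Pearson) 95% interval, and the difference between genotypes by a Wald interval. Intervals and floors cover counting error only. The code was tested on simulated data. Alternatives used DESeq2 1.42.0, limma 3.58.1, other scaling, no filter, a block for the other factor, another prior count, a 3-fold limit and each library left out.

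All 54 genes had a RefSeq entry (Sscrofa11.1), which gave the coordinates. Members and lists were chosen with earlier results of these data known. Genes of the set that stand on a pathway or marker list were left out of that list. Named were members past either test, called the same way in both genotypes or different between them, the 10 with the highest mean scaled CPM and well-known members, and on the lists at most 4 genes past the test by smallest p. Further members were named after their values were seen, as were XCR1, CX3CR1, SOCS2, SOCS3, STAT3, IL6ST, CCR2, CXCR4, CXCR6, ACKR2, ACKR3, CD14 and CD247.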

Additional observations from a re-analysis of the deposited data

Results flagged for a closer look

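TNFRSF21 had opposite changes in the 2 genotypes, each with a counting interval that excluded no change. Its log2 ratio of transplanted over untransplanted kidney was 0.35 in CD39/CD46/CD55/TBM and -1.21 in CD39/CD55, a difference of 1.56 (95% counting interval 1.41 to 1.70). With 1 library per group, whether this difference exceeds the spread between animals was not tested.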

How the results depend on the processing

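TNFRSF1B, IL7, CXCL16, CCL16 and IL21R kept their direction in all 9 alternatives, and TNFRSF1B and CCL16 passed in all 9. In 4 of the 9 a library was left out, so that 1 side has a lone library that is assumed to vary like the other side. With each library left out in turn, 1 to 5 genes of the set rose and 1 to 3 fell, against 3 and 2 in the full comparison. Without the transplanted CD39/CD46/CD55/TBM library only TNFRSF1B rose, and without the transplanted CD39/CD55 library IL15 (adjusted p = 0.0466, and 0.0466 to 0.994 over the alternatives) and IL17D rose and TNFRSF17 (0.00797, and 0.00797 to 0.895) fell as well. Under limma voom 1 gene of the set, CCL16, fell. With genotype as a block IL17D rose and IL17B fell as well. Of all genes, 225 rose and 493 fell in the full comparison, against 413 and 860 under DESeq2's Wald test, 543 and 1035 without a filter, 1124 and 1681 with genotype as a block, and 188 to 1055 and 410 to 1374 with a library left out. Between the genotypes, where the main test called none, DESeq2 called 12 and 5 of all genes, the fit with state as a block 133 and 171, and the fits with a library left out 0 to 9 and 0 to 3. With state as a block IL7 was called higher and TNFRSF17 lower in CD39/CD46/CD55/TBM, 1 gene of the set each way, and no other alternative called any. At a 3-fold limit the set had 6 genes higher and 7 lower after transplantation in CD39/CD46/CD55/TBM and 6 and 5 in CD39/CD55, against 8.04% and 8.89%, and 6.51% and 6.61%, of all genes. Between the genotypes it had 3 and 2 in transplanted and 4 and 2 in untransplanted kidneys, and the change differed for 2 and 5, against 4.27% and 4.78%, 3.25% and 2.74%, and 5.05% and 5.75% of all genes. Without the genes that overlap another gene, an alternative chosen after seeing the data, 10 of 37 were called higher and 6 lower in CD39/CD46/CD55/TBM (27% and 16.2%, against 15.9% and 16.3% of all genes), and 9 and 7 in CD39/CD55 (24.3% and 18.9%, against 13.2% and 13.7%). The labels pair no kidneys, so the fits with genotype or state as a block match libraries by that label alone. They leave fewer residual degrees of freedom than the 2 of the main test. Intervals are wide for genes under about 20 counts, and the causes of these shifts were not tested.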
